A study of Mus musculus with 2 samples.

Results

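Lymphatic endothelial nuclei of mouse quadriceps, a thigh muscle, are described here as nuclei that carried RNA of at least 2 of 4 genes of lymphatic endothelium. The genes were Mmrn1, which encodes the secreted glycoprotein multimerin 1, Reln, which encodes the secreted glycoprotein reelin, Flt4, which encodes the receptor for the lymphatic growth factors VEGF-C and VEGF-D, and Prox1, which encodes the homeobox factor that sets and maintains lymphatic identity. A nucleus was taken as lymphatic when it held at least 3 unique molecular identifiers (UMIs, counted RNA molecules) over these 4 genes, from at least 2 of them. That sum also had to exceed the nucleus's sum over Pdgfra, Dcn, Mrc1, F13a1 and Notch3, genes of fibroblast-type, macrophage and mural cells. Among 18040 nuclei with at least 200 detected genes, 148 met the rule, 135 of 7766 in the library from PTRF knockout muscle and 13 of 10274 in the library from wild-type (WT) muscle.

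PTRF is an earlier name of the protein of Cavin1, which coats caveolae, small invaginations of the cell surface. The knockout and WT mice were C57BL/6N animals aged 3 months, and nuclei of their quadriceps were sequenced by the 3′ droplet method of 10x Genomics. With 1 library of each genotype, genotype differences have no replicate check, every value describes these libraries, and intervals below are 95% intervals that cover counting error alone. How many mice went into a library, their sex and how the knockout allele was made are not stated by the labels.

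Lymphatic vessels take up fluid, large molecules and immune cells from tissue and return them to the blood. Their endothelium derives largely from embryonic veins, where Prox1 switches cells to the lymphatic fate and Flt4 then carries the signal of VEGF-C for growth and survival. In skeletal muscle, lymphatic vessels run in the connective tissue around fibre bundles and beside arterioles.

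The knockout matrix held 16052317 UMIs, with a median of 1562 per nucleus, and the WT matrix held 9746980 UMIs, with a median of 703. Cavin1 itself had 2 UMIs in all other nuclei of the knockout library and 75 UMIs in all other nuclei of the WT library, and 0 UMIs in the lymphatic nuclei of either. The libraries shared 24 barcodes, none of them in a lymphatic nucleus. Nuclei with Xist UMIs alone numbered 1527 in the knockout and 2 in WT, and nuclei with Y-linked UMIs alone numbered 3103 in the knockout and 2721 in WT. Lymphatic nuclei held a median of 1056 UMIs and 757 genes in the knockout, and 573 UMIs and 445 genes in WT.

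Lymphatic nuclei made up 1.74% of the knockout nuclei (exact binomial interval 1.46 to 2.05%) and 0.127% of the WT nuclei (0.0674 to 0.216%). The share was 13.7-fold higher in the knockout (7.77 to 26.5). Over whole libraries the 4 genes differed far less, with 1330 UMIs or 82.9 CPM (UMIs scaled to a total of 1000000) in the knockout and 392 UMIs or 40.2 CPM in WT, a 2.06-fold difference (1.84 to 2.31). The lymphatic nuclei held 80.7% of those UMIs in the knockout and 14.0% in WT. Another 159 knockout nuclei and 312 WT nuclei held at least 1 UMI of the 4 genes without meeting the rule. The share and the library-wide level thus gave ratios of very different size, and both are measures on the same counts. The share rests on the nuclei recovered, so more lymphatic nuclei and fewer nuclei of other kinds cannot be told apart.

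The share changed with the reading of the rule and remained higher in the knockout in each reading tried. It was 10.9-fold higher after every nucleus was thinned to 500 UMIs, with 72 of 7766 knockout nuclei and 7 of 8219 WT nuclei, after 2055 WT nuclei too shallow for thinning were left out. Among nuclei with Y-linked UMIs and no Xist, the share was 0.935% in the knockout (29 of 3103) and 0.110% in WT (3 of 2721), an 8.48-fold difference (2.63 to 43.5). Without Reln among the rule genes, 98 knockout nuclei and 2 WT nuclei remained, a 64.8-fold difference (17.5 to 543). Shares of other non-muscle nuclei chosen by similar rules also differed: blood endothelial nuclei made up 0.734% of knockout nuclei and 0.0876% of WT nuclei, and fibro-adipogenic nuclei 2.38% of knockout nuclei and 0.214% of WT nuclei. Whether the lymphatic share differed more than these was not tested.

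**Figure D1:**
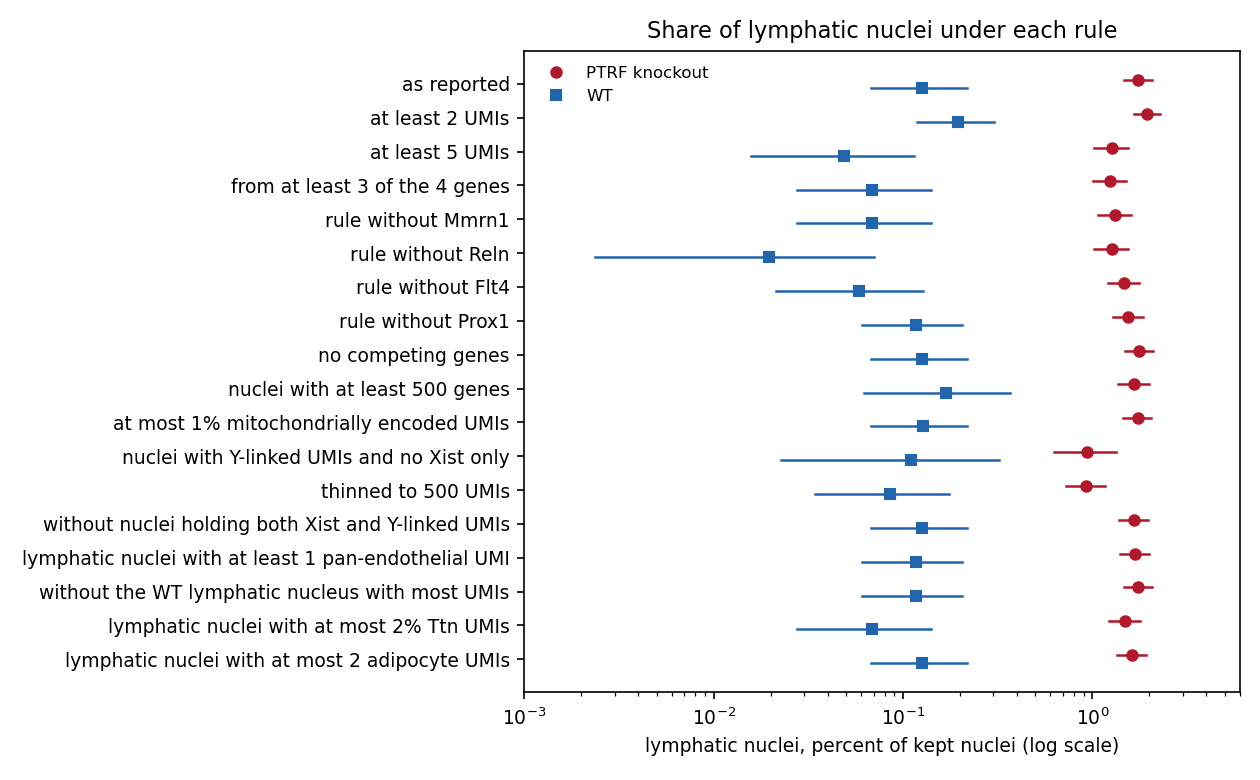
Share of nuclei that met the lymphatic rule, in percent of kept nuclei on a log scale, for the rule as described and for each alternative, with exact 95% binomial intervals. Knockout shares (red circles) lie between 0.927% and 1.94%, above the WT shares (blue squares), which lie between 0.0195% and 0.195%.

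The 4 genes that chose the nuclei are given as a description. In the knockout lymphatic nuclei Reln had 478 UMIs (2316 CPM), against 30 UMIs (2372 CPM) in the WT lymphatic nuclei. Mmrn1 had 259 UMIs (1255 CPM) in the knockout and 11 UMIs (870 CPM) in WT. For Flt4 the sums were 191 UMIs (925 CPM) in the knockout and 12 UMIs (949 CPM) in WT, while Prox1 had 145 UMIs (702 CPM) in the knockout and 2 UMIs (158 CPM) in WT. In the remaining nuclei the levels were 9.66, 1.89, 1.77 and 2.90 CPM in the knockout, in that order of genes, and 22.6, 3.80, 5.24 and 2.98 CPM in WT. Of the 135 knockout lymphatic nuclei, 39 carried all 4 genes, 57 carried 3 and 39 carried 2; of the 13 WT lymphatic nuclei, 1 carried all 4, 6 carried 3 and 6 carried 2. The sum over the 4 genes ran from 3 to 34 UMIs with a median of 7 in the knockout, and from 3 to 7 UMIs with a median of 3 in WT. Reln was present in 13 of 13 WT lymphatic nuclei and in 113 of 135 knockout lymphatic nuclei. Prox1 was present in 2 of 13 WT lymphatic nuclei and in 80 of 135 knockout lymphatic nuclei.

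In GRCm38 with the GENCODE M21 annotation, Reln lies on the minus strand at chr5:21884454-22344702, Mmrn1 on the plus strand at chr6:60924976-60989378, Flt4 on the plus strand at chr11:49609263-49652739 and Prox1 on the minus strand at chr1:190118035-190170714. Reln overlaps 3 other annotated genes on its own strand and 4 on the opposite strand, and Prox1 overlaps its antisense gene Prox1os. No source states whether UMIs were counted by strand, which leaves the origin of some of these UMIs uncertain.

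Near the threshold, genes that the rule did not use also differed. A list of 30 further lymphatic genes summed to 7755 CPM in the 21 knockout nuclei just inside the rule, at 3 UMIs, and to 7330 CPM in the 114 knockout nuclei with more. It summed to 3680 CPM in the 16 knockout nuclei just outside, with 2 UMIs from 2 genes, and to 1663 CPM in knockout nuclei with 0 UMIs of the 4 genes. A list of 17 genes shared by all endothelium gave 5482, 5232, 2444 and 368 CPM in the same sets. In WT the further lymphatic list was at 4305 CPM in the 7 nuclei at 3 UMIs, 6627 CPM in the 6 nuclei with more, and 3028 CPM in the 7 nuclei just outside. Knockout nuclei just outside thus lay between the lymphatic nuclei and those with 0 UMIs. The order was the same in WT, with 1139 CPM at 0 UMIs of the 4 genes. There it rested on 33 UMIs of the list in the nuclei at 3 UMIs and 24 in those just outside. Whether these WT sets differ was not tested.

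**Figure D2:**
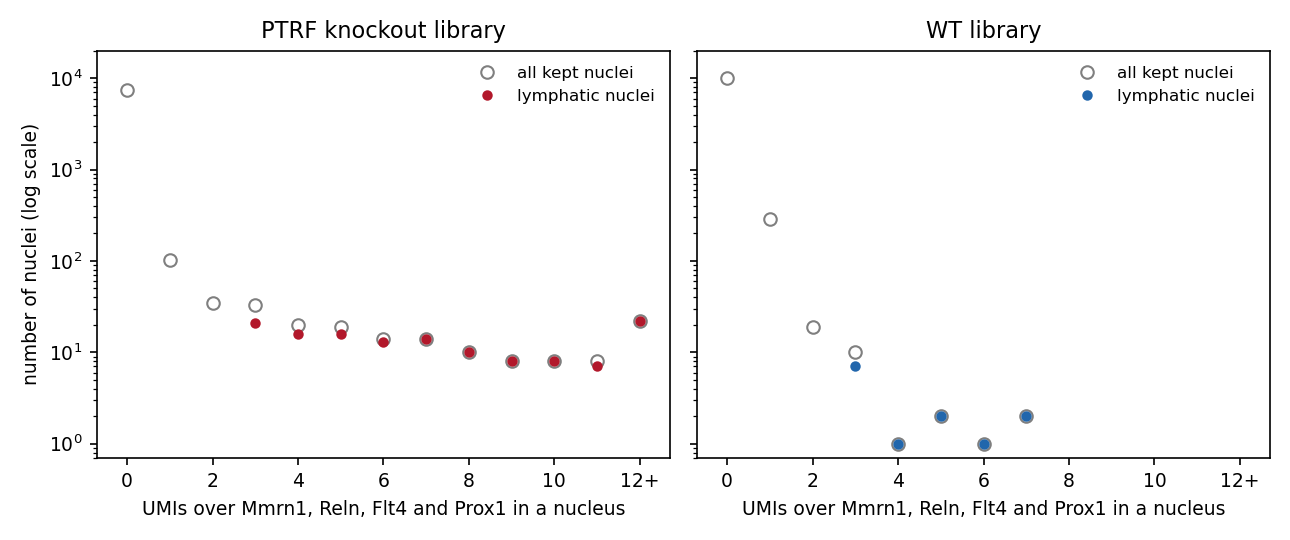
Number of nuclei (log scale) by the UMIs they held over Mmrn1, Reln, Flt4 and Prox1, for all kept nuclei (open circles) and for those that met the lymphatic rule (filled circles), in the knockout library on the left and the WT library on the right; the last bin pools 12 or more. The knockout sums reach 34 UMIs, while no WT lymphatic nucleus held more than 7.

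The label was checked on genes that took no part in the choice. Each gene's CPM in the lymphatic nuclei was divided by its CPM in all other nuclei of the same library, after 0.5 UMI was added to each sum, and a gene is called higher or lower below when its whole counting interval lay beyond 2-fold, among genes with at least 20 UMIs over both sides. In the knockout, 22 of the 30 further lymphatic genes had enough UMIs, and 16 of these were higher and none lower, beside 7.22% higher among all 14118 genes tested. Their median log2 ratio was 4.78, against 0.45 over all genes tested. In WT, 17 had enough UMIs, most of them outside the lymphatic nuclei, and 7 were higher, beside 1.49% of 14603 genes. The WT median log2 ratio was 3.88, against 2.31 over all genes tested, but 15 of the 30 genes had 0 UMIs in the 13 WT nuclei and the added 0.5 UMI then sets the ratio: with additions in proportion to the totals the median was 1.88. The summed list, which that choice barely touches, was 4.39-fold higher in the knockout lymphatic nuclei (4.16 to 4.62) and 4.59-fold higher in the WT lymphatic nuclei (3.52 to 5.80). The sum in other nuclei, 1684 CPM in the knockout and 1146 CPM in WT, included genes that muscle nuclei also transcribe, among them Maf and Foxp2.

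All-endothelial genes gave the same picture. Of 15 tested in the knockout, 13 were higher and none lower in lymphatic nuclei, beside 7.22% higher among all genes tested. Their median log2 ratio was 4.80. Their sum was 5266 CPM in knockout lymphatic nuclei and 390 CPM in the other knockout nuclei, and 3479 CPM in WT lymphatic nuclei and 185 CPM in the other WT nuclei. Pecam1, the junctional adhesion molecule CD31, had 92 UMIs (446 CPM) in knockout lymphatic nuclei and 16.1 CPM in the other nuclei. Cdh5, which encodes the adherens junction protein VE-cadherin, had 28 UMIs (136 CPM) in knockout lymphatic nuclei and 2.46 CPM in the others. At least 1 all-endothelial UMI was found in 130 of 135 knockout lymphatic nuclei and 12 of 13 WT lymphatic nuclei, against 26.4% of the other knockout nuclei and 13.6% of the other WT nuclei. The counts go with the lymphatic endothelial label for the knockout set as a whole. In WT, 5 of 12 tested were higher, beside 1.49% of all genes tested. Of the 17 listed, 6 had 0 UMIs in WT lymphatic nuclei, Cdh5 among them, and 15.4% of those nuclei held Pecam1. Ttn, a muscle gene, was at 66919 CPM in the 7 WT nuclei at 3 rule UMIs and 37550 CPM in the 6 with more. It was at 68300 CPM in WT nuclei with 0. The WT label thus rests on fewer genes and nuclei, some of them rich in muscle RNA.

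Transcription factors known from lymphatic development were detected to different degrees in the knockout lymphatic nuclei. Nr2f2, an orphan nuclear receptor that helps to switch on Prox1 in veins, had 47 UMIs (228 CPM), against 13.6 CPM in the other nuclei, a 16.8-fold difference (11.9 to 23.0). Nfatc1, a calcineurin-regulated factor of lymphatic valve formation, was at 368 CPM against 92.7 CPM, a 4.00-fold difference (3.11 to 5.00), and the T-box factor Tbx1 was at 63.0 CPM against 9.47 CPM. The forkhead factor Foxp2, at 480 CPM against 228 CPM, did not clear 2-fold with its whole interval. Maf, a factor with a basic leucine zipper, was lower in level, at 717 CPM in lymphatic nuclei and 1008 CPM in the others. Gata2, a factor needed for lymphatic valves, had 0 UMIs in the knockout lymphatic nuclei, where 3 UMIs would be 14.5 CPM. Of 10 lymphatic transcription factors tested, 4 were higher and none lower, beside 7.22% higher and 1.2% lower among all genes tested.

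Receptors and co-receptors of vascular growth factors came next. Nrp2, a co-receptor for VEGF-C and for semaphorins, was at 504 CPM in knockout lymphatic nuclei (104 UMIs in 58 of 135 nuclei) and 19.6 CPM in the other nuclei, 25.8-fold higher (20.4 to 32.1). Kdr, the receptor VEGFR2, was at 111 CPM against 1.58 CPM, and Tie1, an orphan receptor of the Tie family, at 87.2 CPM against 2.15 CPM. Nrp1, by contrast, was at 170 CPM in lymphatic nuclei and 182 CPM in the others. Of the 16 genes on this list, 6 were higher and 1, Vegfa, was lower, beside 7.22% higher and 1.2% lower among all genes tested. The growth factor gene Vegfa was at 126 CPM in lymphatic nuclei and 370 CPM in the others.

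Of 14 genes of chemokines, leukocyte entry and sphingolipid export, 12 were tested in the knockout and 7 were higher and none lower, beside 7.22% higher among all genes tested; 3 of the 14 had 0 UMIs in the knockout lymphatic nuclei and 7 in the WT ones. Members of this list are given here with surface proteins of the further lymphatic list. Lyve1, the hyaluronan receptor of lymphatic capillaries, had 26 UMIs (126 CPM) in 21 knockout lymphatic nuclei, against 1.01 CPM in the others. Ccl21a, which encodes the chemokine that draws dendritic cells into lymphatic vessels, had 52 UMIs (252 CPM) in 36 nuclei, against 1.70 CPM; near-identical copies of this gene exist in the mouse, so its UMIs are of uncertain assignment. Stab1, a scavenger receptor, was at 339 CPM against 9.09 CPM, and the mucin-type protein podoplanin gene Pdpn at 107 CPM against 3.16 CPM. The cytokine gene Il7, a survival factor for lymphocytes, had 27 UMIs (131 CPM), against 2.21 CPM, and Spns2, an exporter of sphingosine 1-phosphate, 32 UMIs (155 CPM), against 34.8 CPM. Clca3a1, whose product is a surface antigen of mouse lymphatic vessels, had 14 UMIs (67.8 CPM) against 0.631 CPM. The chemokine-scavenging receptor gene Ackr4 was at 0 UMIs in the knockout lymphatic nuclei. In the 13 WT lymphatic nuclei Ccl21a had 2 UMIs, Il7 2, Stab1 4, Spns2 1 and Clca3a1 1, while Lyve1 and Pdpn had 0, where 3 UMIs would be 237 CPM.

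Junction, valve and flow genes were higher for 11 of 13 tested in the knockout, beside 7.22% higher among all genes tested, and none was lower. Itga9, the integrin chain of lymphatic valves, was at 499 CPM in knockout lymphatic nuclei and 17.3 CPM in the others, and had 10 UMIs (791 CPM) in the WT lymphatic nuclei. Gja1, the gap junction protein connexin 43, was at 184 CPM against 7.07 CPM, and Efnb2, the transmembrane ligand ephrin B2, at 150 CPM against 5.74 CPM. Celsr1, a planar polarity cadherin of valve cells, was at 77.5 CPM against 1.14 CPM, and the tight junction gene Cldn5 at 67.8 CPM against 1.45 CPM. The exceptions were Piezo1, a stretch-gated channel, at 140.5 CPM against 68.8 CPM, and Tjp1, a tight junction scaffold, at 87.2 CPM against 35.4 CPM. Against knockout blood endothelial nuclei, described further on, 1 of 7 tested genes of this list was higher and none lower. The list summed to 1603 CPM in lymphatic and 1426 CPM in blood endothelial nuclei (1.12-fold, 0.911 to 1.40), so its summed level was similar in both. The sum does not show whether the same genes carried it.

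Guidance and matrix genes were higher for 11 of 17 tested in the knockout and lower for none, beside 7.22% higher among all genes tested. Ntn1, the secreted guidance protein netrin 1, had 266 UMIs (1288 CPM) in 100 of 135 knockout lymphatic nuclei, against 34.5 CPM in the others, and 14 UMIs (1107 CPM) in 7 of 13 WT lymphatic nuclei. The semaphorin gene Sema3d had 140 UMIs (678 CPM) against 5.55 CPM in the others, and Sema3f had 22 UMIs (107 CPM) against 2.59 CPM. Sema3a, which helps to shape lymphatic valves, had 86 UMIs (417 CPM) against 197 CPM, an interval that crossed 2-fold (1.69 to 2.62). Lama4, a laminin chain of vascular basement membranes, was at 1124 CPM against 154 CPM, a 7.33-fold difference (6.36 to 8.37). Set against knockout blood endothelial nuclei, 1 of 11 tested genes of this list was higher and none lower. The list summed to 5348 CPM in lymphatic and 3553 CPM in blood endothelial nuclei (1.503-fold, 1.32 to 1.71), beside 946 CPM in all other nuclei. Its summed level thus lay nearer to that of blood endothelial nuclei than to that of all other nuclei.

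In the knockout, the share of nuclei with a UMI told the same at matched depth. After thinning to 500 UMIs, 53.3% of the 135 knockout lymphatic nuclei held Ntn1, against 2.29% of the other knockout nuclei (unthinned, 74.1% and 4.42%). Sema3d was held by 26.7% after thinning, against 0.432%, and Lyve1 by 7.41%, against 0.105%. The share in the other nuclei includes any background from free RNA in the droplets. Maf was held by 32.6% of both sets after thinning. For WT, 11 lymphatic nuclei were deep enough, of which 4 held Ntn1 and 4 held Nrp2, against 1.07% and 0.999% of the other WT nuclei. Sema3d and Maf were each held by 1 of the 11 and Lyve1 by 0. In the other WT nuclei these shares were 0.658%, 24.2% and 0.0487%. So few WT nuclei give no firm check at matched depth.

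**Figure D3:**
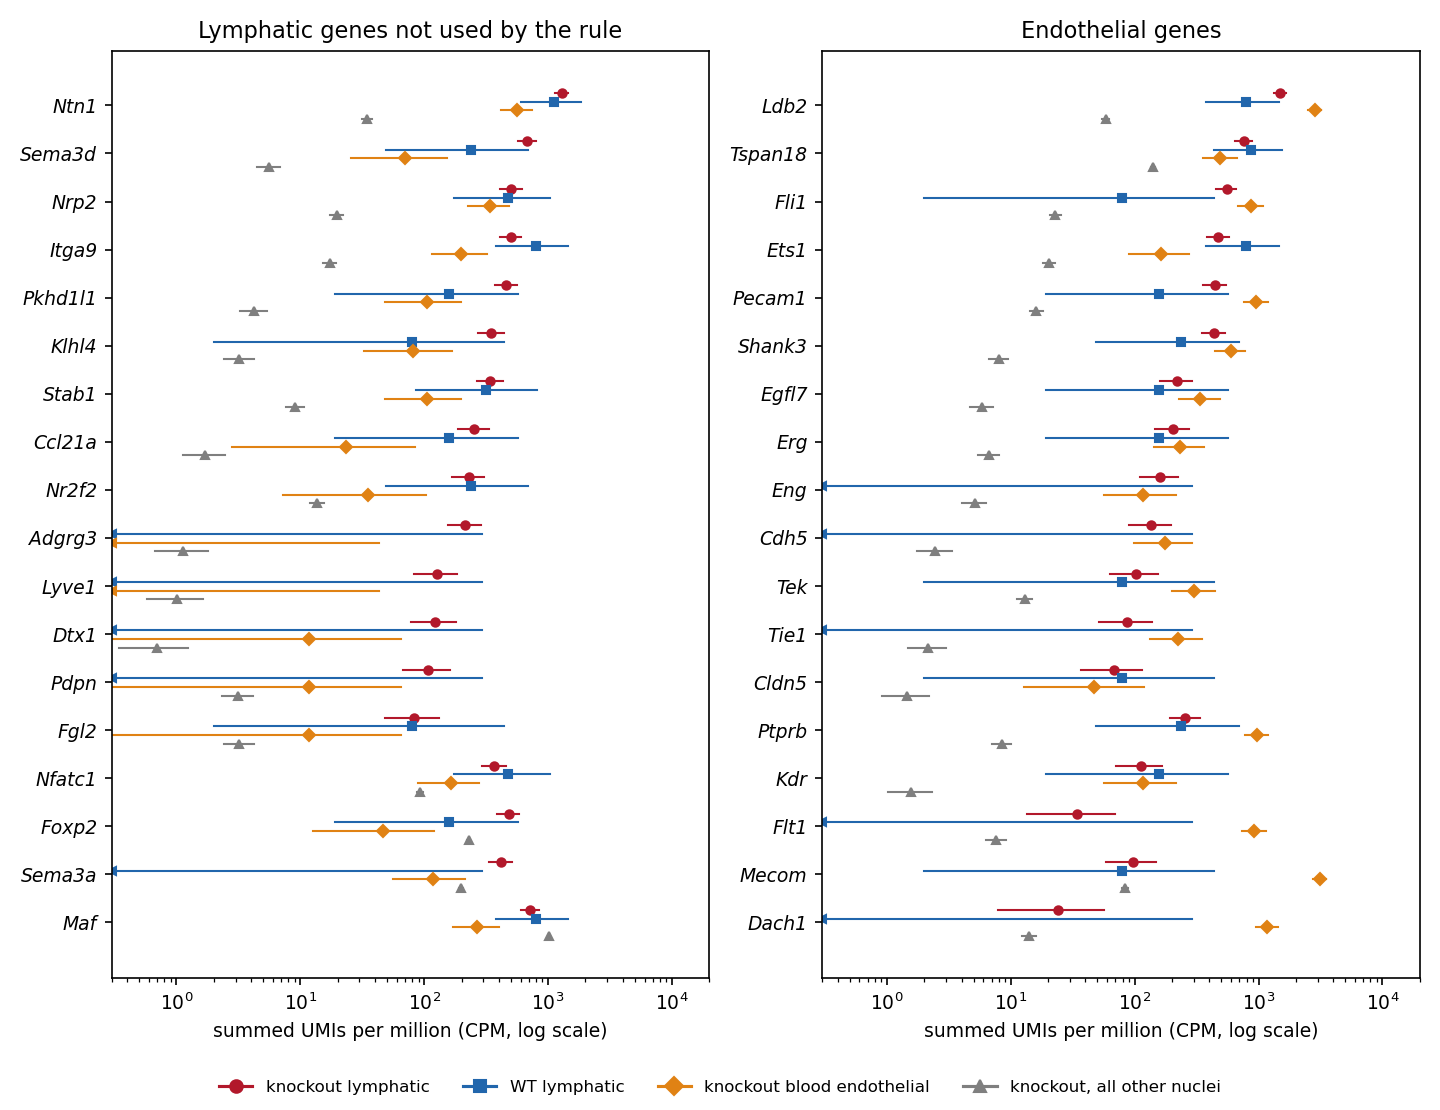
Summed UMIs as CPM (log scale) with exact Poisson 95% intervals for lymphatic genes that the rule did not use (left) and for endothelial genes (right), in knockout lymphatic nuclei (red circles), WT lymphatic nuclei (blue squares), knockout blood endothelial nuclei (orange diamonds) and all other knockout nuclei (grey triangles). Arrowheads at the left edge mark sums of 0 UMIs; Ntn1 stands at 1288 CPM in knockout lymphatic nuclei, against 34.5 CPM in the others, and Mecom at 96.9 CPM, against 3120 CPM in blood endothelial nuclei.

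All genes were then ranked by the lower bound of the ratio between lymphatic and all other nuclei in the knockout library, leaving out rule genes, predicted gene models and some abundant or sex-linked classes, and 19 of the top 20 are named with their WT values as the library the ranking did not use. Being chosen by this ratio, the knockout values are a description. In the 13 WT lymphatic nuclei the 19 genes had between 0 and 13 UMIs each. Apba2, an adaptor that binds the amyloid precursor protein, came at the top of the ranking, with 138 UMIs (669 CPM) in lymphatic nuclei and 51 UMIs (3.22 CPM) in the other knockout nuclei. In WT it had 10 UMIs (791 CPM) in lymphatic nuclei and 6.68 CPM in the others. Galnt18, an enzyme family member of mucin-type glycosylation, had 359 UMIs (1739 CPM) in knockout lymphatic nuclei against 23.0 CPM, and 13 UMIs (1028 CPM) in WT lymphatic nuclei against 25.1 CPM. Sema6a, a transmembrane semaphorin, had 257 UMIs (1245 CPM) in the knockout lymphatic nuclei and 9 UMIs (712 CPM) in those of WT, against 15.0 CPM in the other knockout nuclei and 23.0 CPM in the other WT nuclei. Elk3, an ETS-family factor, had 176 UMIs (853 CPM) in the knockout lymphatic nuclei and 9 UMIs (712 CPM) in those of WT, against 10.3 CPM in the other knockout nuclei and 9.04 CPM in the other WT nuclei.

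The ranking also held signalling and adhesion genes. Adgrg3, an adhesion G protein-coupled receptor, had 44 UMIs (213 CPM) against 1.14 CPM, Megf6, a protein with EGF-like repeats, 74 UMIs (358 CPM) against 2.02 CPM, and Sh3gl3, an endophilin of membrane curvature, 71 UMIs (344 CPM) against 2.08 CPM. Fgf12, an intracellular fibroblast growth factor homologue, had 75 UMIs (363 CPM) against 4.102 CPM. Arap3, a regulator of small GTPases, had 54 UMIs (262 CPM) against 2.21 CPM, with 5 UMIs (395 CPM) in the WT lymphatic nuclei. Dtx1, a ubiquitin ligase of Notch signalling, had 25 UMIs (121 CPM) against 0.694 CPM. The remaining names were Slfn3, Sema3d, Ccl21a, Rassf9, Pkhd1l1, Olfr1372-ps1, Tc2n, Klhl4 and Lyve1. In the WT lymphatic nuclei Megf6 had 4 UMIs, Fgf12 and Sema3d 3 each, Sh3gl3, Ccl21a and Pkhd1l1 2 each, and Slfn3, Olfr1372-ps1 and Klhl4 1 each. Adgrg3, Rassf9, Dtx1, Tc2n and Lyve1 had 0 UMIs in the 13 WT lymphatic nuclei. Among the 19 genes, 7 share their strand with an overlapping gene, 4 overlap a gene only on the opposite strand, and Slfn3 belongs to a family of close copies, so their UMIs are of less certain origin.

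Because several ETS-family genes (Elk3, Erg, Fli1 and Ets1) were among the genes higher in lymphatic nuclei, promoters of the named genes were searched for 2 sequences around the GGAA core of that family, CCGGAAG and CAGGAAG, on both strands. The 250 bases before the RefSeq start of a gene in GRCm38.p6 were used. A gene with several starts counted once, as a match when any of its promoters matched. At least 1 match stood in 19% of all 27025 genes with an entry. It stood in 1 of the 4 rule genes, in 4 of the 20 further lymphatic genes with an entry and in 4 of the 12 ranked genes with an entry. These shares are a description on few genes and say nothing of binding. The matching promoters of 3 genes are shown, from the RefSeq table: that of Reln (chr5:22344706-22344955, minus strand), which gave most rule UMIs, and those of the ranked genes Adgrg3 (chr8:95017442-95017691, plus strand) and Elk3 (chr10:93311160-93311409, minus strand). Each is written 5′ to 3′ on the strand of its gene, with the match in capitals.
Reln: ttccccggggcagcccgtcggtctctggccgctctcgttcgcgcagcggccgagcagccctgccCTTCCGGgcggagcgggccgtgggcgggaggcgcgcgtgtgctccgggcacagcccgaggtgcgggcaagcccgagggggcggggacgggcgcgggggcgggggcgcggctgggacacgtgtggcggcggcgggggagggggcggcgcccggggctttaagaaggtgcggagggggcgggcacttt
Adgrg3: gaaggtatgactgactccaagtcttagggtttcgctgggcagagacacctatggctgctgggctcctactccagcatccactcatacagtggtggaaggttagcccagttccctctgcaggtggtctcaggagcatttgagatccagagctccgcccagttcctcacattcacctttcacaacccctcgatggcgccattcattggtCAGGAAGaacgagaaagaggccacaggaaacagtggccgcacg
Elk3: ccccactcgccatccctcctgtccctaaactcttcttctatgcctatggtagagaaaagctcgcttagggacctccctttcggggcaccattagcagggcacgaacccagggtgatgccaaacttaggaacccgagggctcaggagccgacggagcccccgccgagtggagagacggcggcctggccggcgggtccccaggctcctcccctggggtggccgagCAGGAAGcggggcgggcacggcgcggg
In Reln the match is the reverse complement, CTTCCGG, of the searched CCGGAAG, whereas Adgrg3 and Elk3 hold CAGGAAG as searched.

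The nearest relatives in the tissue, blood endothelial nuclei, were chosen by at least 3 UMIs over Flt1, Ptprb, Emcn, Cyyr1 and Adgrl4 from at least 2 of these, exceeding the lymphatic and competing sums. There were 57 in the knockout and 9 in WT, and the comparison was made in the knockout. Of 3026 genes tested, 94 were higher (3.11%) and 73 lower (2.41%) in lymphatic than in blood endothelial nuclei. Of the further lymphatic genes, 7 of 17 tested were higher and none lower, with a median log2 ratio of 2.06 against 0.01 over all genes tested. The whole list of 30 genes summed to 7387 CPM (1525 UMIs) in lymphatic and 2267 CPM (194 UMIs) in blood endothelial nuclei. With most of these UMIs in lymphatic nuclei, the minimum of UMIs for a test favoured members high there. The count and the median thus follow in part from that filter, which does not enter the sum. The all-endothelial list was lower, with 5266 CPM in lymphatic and 10670 CPM in blood endothelial nuclei, and 1 of 13 tested members, Mecom, passed the rule. The 17 genes of blood endothelium that had no part in the choice summed to 397 CPM in lymphatic and 2267 CPM in blood endothelial nuclei. Only 3 of them had enough UMIs to be tested, of which 1, Dach1, was lower and none higher, with a median log2 ratio of -0.11. The sum thus does not show a difference across the list.

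The 10 genes highest over blood endothelium, ranked by the nearer interval bound, began with Piezo2, a stretch-gated channel best known from touch receptors. It had 260 UMIs (1260 CPM) in 91 of the 135 knockout lymphatic nuclei and 3 UMIs (35.1 CPM) in the blood endothelial nuclei. In the WT lymphatic nuclei it had 13 UMIs (1028 CPM), against 23.6 CPM in the other WT nuclei. Pard6g, a cell polarity scaffold, had 108 UMIs (523 CPM) in lymphatic and 0 UMIs in blood endothelial nuclei, 14.9-fold higher when the blood endothelial sum is set to 3 UMIs. Plce1, a phospholipase C activated by Ras-family GTPases, had 220 UMIs (1066 CPM) against 46.8 CPM, and Npas3, a transcription factor of the basic helix-loop-helix and PAS family, 134 UMIs (649 CPM) against 23.4 CPM. Glis3, a zinc finger factor, had 255 UMIs (1235 CPM) against 117 CPM, and Thsd4, a microfibril-associated protein, 100 UMIs (484 CPM) against 23.4 CPM. Gpm6a, Apba2, Sh3gl3 and Fgf12 completed the 10.

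The 10 genes lowest against blood endothelium began with Mecom, a zinc finger factor. It had 20 UMIs (96.9 CPM) in 8 lymphatic nuclei and 267 UMIs (3120 CPM) in blood endothelial nuclei, a log2 ratio of -4.98 (-5.74 to -4.35). Dach1, a transcription factor of arterial endothelium, had 5 UMIs (24.2 CPM) in lymphatic and 101 UMIs (1180 CPM) in blood endothelial nuclei. Entpd1, the ectonucleotidase CD39, was at 33.9 CPM in lymphatic and 573 CPM in blood endothelial nuclei, and Kitl, the ligand of the Kit receptor, at 38.8 CPM in lymphatic and 608 CPM in blood endothelial nuclei. Col25a1, a membrane-bound collagen, had 0 UMIs in knockout lymphatic nuclei and 22 UMIs (257 CPM) in blood endothelial nuclei. Flt1, the receptor VEGFR1, which was used to choose the blood endothelial nuclei, was at 33.9 CPM in lymphatic and 923 CPM in blood endothelial nuclei. Samd12, Gcnt2, Epb41l4a and Ano4 completed this side.

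Of 11 vascular growth factor and receptor genes tested, 4 were lower in lymphatic than in blood endothelial nuclei (Flt1, Nrp1, Ptprb and Vegfc) and none higher, and Flt1 and Ptprb had been used to choose the blood endothelial nuclei. Tek, the receptor of the angiopoietins, was at 102 CPM in lymphatic and 304 CPM in blood endothelial nuclei (log2 interval -2.48 to -0.69), and Tie1 at 87.2 CPM in lymphatic and 222 CPM in blood endothelial nuclei (-2.36 to -0.34), neither of them called. Nrp1 was at 170 CPM in lymphatic and 654 CPM in blood endothelial nuclei (-2.60 to -1.31). Kdr was at 111 CPM in lymphatic and 117 CPM in blood endothelial nuclei, with an interval of the log2 ratio from -1.20 to 1.17, and Nrp2 at 504 CPM in lymphatic and 339 CPM in blood endothelial nuclei (-0.03 to 1.22). Ets1 was the all-endothelial gene with the largest ratio toward lymphatic nuclei, at 475 CPM against 164 CPM (log2 1.49, 0.72 to 2.46). In the WT library only 73 genes had enough UMIs for this comparison, of which 1 was higher (1.37%) and 1 lower, so it was not carried further there.

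**Figure D4:**
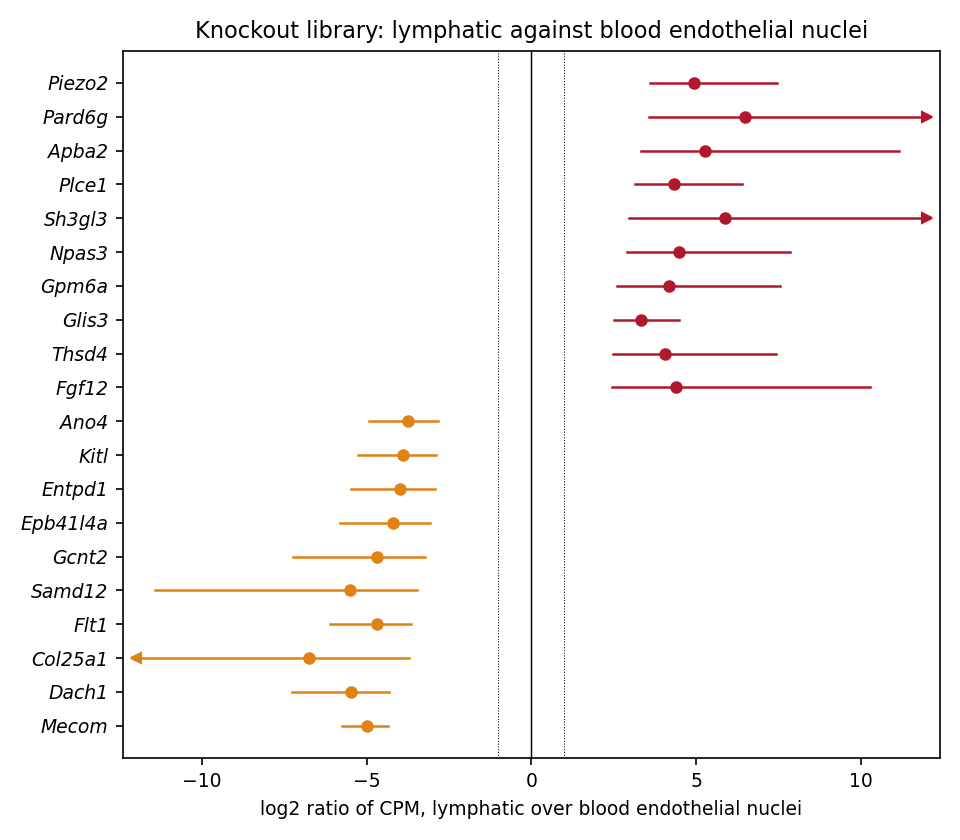
Log2 ratio of CPM, lymphatic over blood endothelial nuclei of the knockout library, with 95% counting intervals, for the 10 genes highest (red) and the 10 lowest (orange) as ranked by interval bound; dotted lines mark 2-fold and arrowheads an interval without bound because 1 side had 0 UMIs. Points run from -6.76 for Col25a1 to 6.49 for Pard6g.

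Gene lists of other cell types gave mixed results in the knockout lymphatic nuclei, some above and some below the level in all other nuclei. Against fibro-adipogenic nuclei, 5.75% of 4397 genes tested were higher and 6.19% lower in lymphatic nuclei. Fibro-adipogenic genes that were used to choose such nuclei summed to 179 CPM in lymphatic nuclei and 3198 CPM in fibro-adipogenic nuclei of the same library, and to 102 CPM in all nuclei other than lymphatic ones (1.78-fold, 1.24 to 2.44). The 12 other genes of that type summed to 1976 CPM in lymphatic nuclei and 1454 CPM in all others (1.36-fold). Of these 12, 11 had enough UMIs to be set against fibro-adipogenic nuclei, and 9 were lower in lymphatic nuclei. Of the 12, Fbn1, the microfibril protein fibrillin 1, was at 533 CPM in lymphatic, 1109 CPM in fibro-adipogenic and 69.7 CPM in all other nuclei, and the matrix protein gene Tnxb at 436 CPM in lymphatic, 770 CPM in fibro-adipogenic and 47.0 CPM in all other nuclei. Both were called higher than in all other nuclei. The 10 macrophage genes summed to 455 CPM against 279 CPM in the rest (1.64-fold, 1.32 to 2.00), and 2 of them were higher: Mrc1, the mannose receptor, at 82.4 CPM against 15.5 CPM, and the receptor kinase gene Mertk at 96.9 CPM against 11.2 CPM. Mrc1 was among the genes of the rule that a lymphatic nucleus had to exceed. The 8 satellite cell genes summed to 24 UMIs (116 CPM) against 20.1 CPM (5.90-fold, 3.66 to 8.78), of which 20 UMIs were from the receptor gene Notch1, which endothelium also expresses and which was the 1 of 4 tested to be called higher. Below the rest were the 10 mural genes, at 412 CPM against 579 CPM, and the 10 adipocyte genes, at 3560 CPM against 5459 CPM. The 12 muscle-fibre genes summed to 23412 CPM in lymphatic nuclei and 78809 CPM in the others, and 8 of the 12 were lower, beside 1.2% of all genes tested. How much of this RNA was free in the droplets was not tested.

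Caveola genes were of interest because the knockout removes their coat protein. In the knockout lymphatic nuclei 5 of 8 tested were higher than in other nuclei and none lower, beside 7.22% higher and 1.2% lower among all genes tested. Cav1, the main caveolin of endothelium, had 80 UMIs (388 CPM) in 50 nuclei, against 115 CPM in the other nuclei and 900 CPM in blood endothelial nuclei. Cavin2, another coat protein, had 56 UMIs (271 CPM), against 29.9 CPM in the others, and the neck protein gene Ehd2 had 19 UMIs (92.0 CPM) against 17.5 CPM. Pacsin2, a membrane-bending protein, was at 421 CPM against 132 CPM. Against knockout blood endothelial nuclei, 0 of 5 tested caveola genes were higher and 0 lower. The caveola list summed to 1293 CPM in lymphatic and 1753 CPM in blood endothelial nuclei (0.737-fold, 0.602 to 0.907). The 13 WT lymphatic nuclei held 0 UMIs of Cav1, 4 of Cavin2, 2 of Pacsin2 and 0 of Ehd2, where 3 UMIs would be 237 CPM. Sums this small leave the WT levels uncertain. For Cav1 the knockout level was 1.63-fold higher with 3 UMIs put in for WT, beside a 6.25-fold difference (5.37 to 7.35) in all other nuclei.

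Lymphatic nuclei of the knockout were then set against those of WT, which asks how the genotypes compare within 206434 UMIs of knockout and 12646 UMIs of WT lymphatic nuclei. Of 2406 genes with at least 20 UMIs over both sets, 5 were higher (0.208%) and 27 lower (1.12%) in the knockout. In all other nuclei, with far more UMIs, 3.02% of 17724 genes were higher and 14.8% lower. Between the blood endothelial nuclei of the genotypes, 0.3% of 1000 genes were higher and 1% lower in the knockout. The rule genes summed to 5198 CPM in knockout and 4349 CPM in WT lymphatic nuclei, and none of them was called. The rule forces a minimum of that sum in each nucleus, so the sum is a description. Among the rule genes, Prox1 was at 702 CPM in the knockout and 158 CPM in WT, where it had 2 UMIs. Further lymphatic genes summed to 7387 CPM in the knockout and 5219 CPM in WT, 1.41-fold higher (1.11 to 1.84), and the all-endothelial list to 5266 CPM in the knockout and 3479 CPM in WT, 1.497-fold higher (1.12 to 2.10); none of their members was called. In nuclei with at most 2% Ttn the direction turned, with the all-endothelial list at 6563 CPM in the knockout and 7830 CPM in WT (0.826-fold, 0.590 to 1.23).

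The genes higher in knockout lymphatic nuclei were Stag1, Utrn, Acaca, Fbxl7 and Plxdc2. Utrn, the gene of the dystrophin relative utrophin, had 465 UMIs (2252 CPM) in 115 of 135 knockout nuclei and 6 UMIs (474 CPM) in 5 of 13 WT nuclei, a log2 ratio of 2.13 (1.11 to 3.70). In all other nuclei it was at 296 CPM in the knockout and 134 CPM in WT. Fbxl7, a ubiquitin ligase subunit, had 192 UMIs (930 CPM) in the knockout and 1 UMI in WT. Stag1, a cohesin subunit, had 137 UMIs (664 CPM) in 80 knockout nuclei and 0 UMIs in WT. It was 2.80-fold higher with 3 UMIs put in for WT, which is a stand-in and not a lower bound. Plxdc2, a membrane protein of the plexin-domain family, had 127 UMIs (615 CPM) in the knockout and 0 in WT, 2.59-fold higher with the same stand-in. Acaca, the enzyme that commits carbon to fatty acid synthesis, had 128 UMIs (620 CPM) in the knockout and 0 in WT. It was 2.61-fold higher on the same basis, beside a 5.74-fold difference (5.42 to 6.08) in all other nuclei. Without 9 knockout nuclei rich in adipocyte RNA, described further on, Acaca had 33 UMIs (188 CPM), which is under the 237 CPM that 3 UMIs would be in WT, and it was no longer called; in Y-marked nuclei its log2 ratio was 0.83 with a lower bound of -2.44. The lower bounds of the log2 interval, which the added 0.5 UMI does not enter, were 1.07 for Acaca, 1.17 for Stag1 and 1.06 for Plxdc2. Without the WT lymphatic nucleus with most UMIs, which held 3517 of the 12646 WT UMIs, 0 genes were called higher and 12 lower. The log2 ratios of the 5 genes were then 3.604 for Stag1, 1.66 for Utrn, 3.51 for Acaca, 2.50 for Fbxl7 and 3.49 for Plxdc2, still above 0, with lower bounds between 0.59 and 0.70.

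The genes lower in the knockout were led by transcripts of muscle fibres and by Rn18s, the 18S ribosomal RNA. Ttn, the giant sarcomere protein titin, had 2549 UMIs (12348 CPM) in knockout and 700 UMIs (55353 CPM) in WT lymphatic nuclei, a log2 ratio of -2.17 (-2.29 to -2.04), and -0.72 in all other nuclei. Rn18s was at 24221 CPM in the knockout and 77258 CPM in WT, a log2 ratio of -1.67; in all other nuclei it was at 29080 CPM in the knockout and 80691 CPM in WT, a log2 ratio of -1.47. Myh2, the myosin of type IIa fibres, had 12 UMIs in 3 knockout nuclei and 16 UMIs in 2 WT nuclei. Mybpc1, a myosin-binding protein, had 58 UMIs (281 CPM) in the knockout and 19 UMIs (1502 CPM) in WT, all 19 in 1 nucleus. The other named genes by rank were Tnnt3, Atp2a1, Alpk3, Neb and the mitochondrial leucyl-tRNA synthetase gene Lars2. The 12 muscle-fibre genes together were at 23412 CPM in knockout and 81053 CPM in WT lymphatic nuclei, a ratio of 0.289 (0.270 to 0.309), beside 0.748 in all other nuclei.

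**Figure D5:**
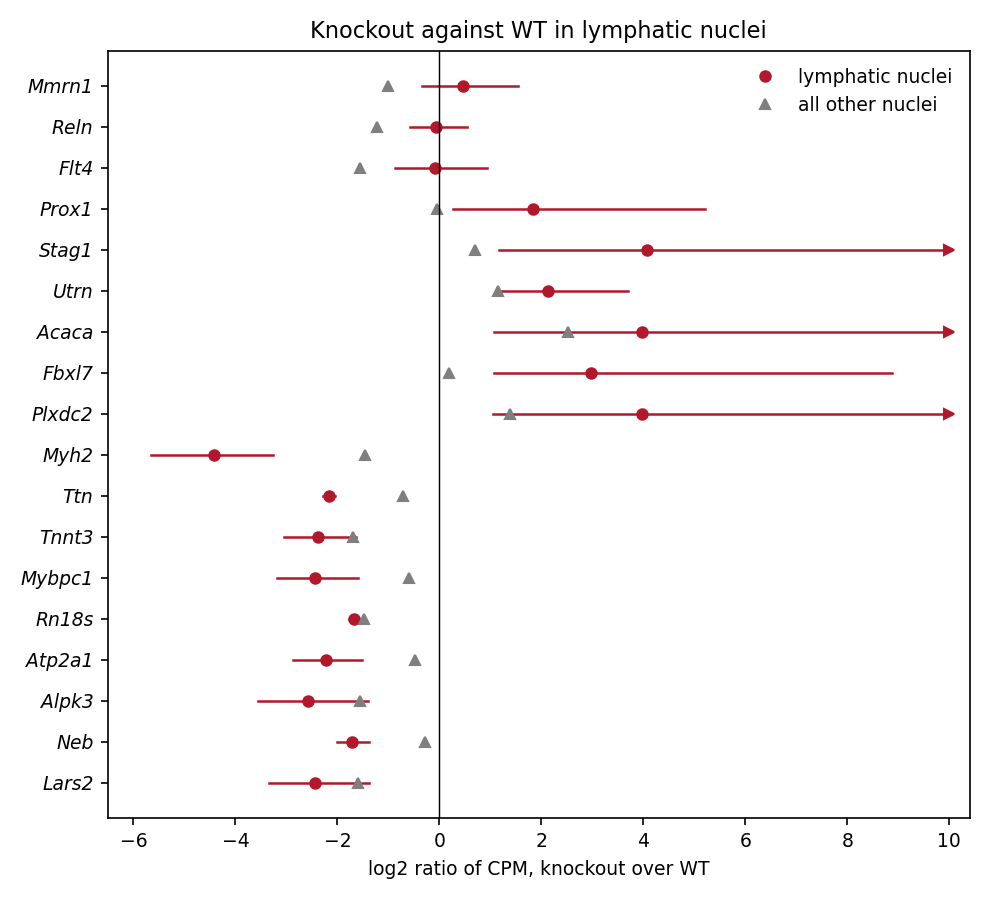
Log2 ratio of CPM, knockout over WT, in lymphatic nuclei (red circles, with 95% counting intervals; arrowheads where WT had 0 UMIs) and in all other nuclei (grey triangles), for the rule genes and for the named genes whose whole interval lay beyond 2-fold. Utrn stands at 2.13 and Ttn at -2.17 in lymphatic nuclei, and the intervals of Mmrn1, Reln and Flt4 include 0.

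The 13 WT lymphatic nuclei were unlike each other in muscle RNA. Ttn made up at most 1.30% of UMIs in 7 of them and between 4.36% and 10.2% in the other 6. The deepest, with 3517 UMIs, held 1 UMI each of Mmrn1, Reln and Flt4, no all-endothelial UMI and 329 of Ttn, together with the 19 Mybpc1 UMIs and 11 of the 16 Myh2 UMIs. In the knockout the median was 0.0934% Ttn and the highest 6.56%, with 20 of 135 nuclei above 2%, against a median of 3.71% in the other knockout nuclei and 6.70% in the other WT nuclei. Among nuclei with at most 2% Ttn, 115 in the knockout and 7 in WT, 0 genes were higher and 6 lower. Utrn was at 2863 CPM in the knockout and 1468 CPM in WT (1.80-fold, 0.888 to 5.35), the further lymphatic list at 8668 CPM in the knockout and 10521 CPM in WT (0.815-fold, 0.608 to 1.14), and the share of such nuclei was 21.7-fold higher in the knockout.

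Among the knockout lymphatic nuclei, 33 carried Xist UMIs alone, 29 Y-linked UMIs alone, 10 both and 63 neither; among the WT lymphatic nuclei, 3 carried Y-linked UMIs alone, 10 neither and none Xist. The rule genes summed to 4697 CPM in Xist-marked and 5531 CPM in Y-marked knockout nuclei (0.849-fold, 0.718 to 1.00). Sema3d was at 623 CPM in Xist-marked and 1090 CPM in Y-marked nuclei (0.573-fold, 0.370 to 0.878), and Lyve1 had 3 UMIs in Xist-marked and 9 UMIs in Y-marked nuclei. The 10 adipocyte genes, by contrast, summed to 5457 CPM in Xist-marked and 1257 CPM in Y-marked nuclei (4.31-fold, 3.29 to 5.81).

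That adipocyte signal came from few nuclei. Of the 135 knockout lymphatic nuclei, 9 held more than 2 UMIs over Plin1, Adipoq, Cidec and Lipe, genes of fat cells, whereas 117 held 0. The 9 nuclei had a median of 3228 UMIs, against 1013 in the other 126, and held 459 of the 735 adipocyte UMIs and 95 of the 128 Acaca UMIs. Of these 9, 7 carried Xist alone, 2 carried both Xist and Y-linked UMIs and none Y-linked UMIs alone. Their all-endothelial list was at 2957 CPM, against 5665 CPM in the other 126. With them left out, the adipocyte list was at 1272 CPM in Xist-marked and 1257 CPM in Y-marked nuclei. Plin1, Adipoq, Cidec and Lipe, which picked the 9 nuclei, belong to that list, so its fall without them follows in part from the choice. Whether these 9 barcodes held more than 1 nucleus was not tested.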

How the data were processed

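Single-nucleus libraries, 1 per genotype, were analysed from the UMI counts that the authors deposited as 10x matrices, which per the file headers came from Cell Ranger version 6.0.0; STAR, Seurat 4.1.1 and mm10/GRCm38 are listed in the submitters' processing notes without their roles. Counts were used as deposited, with 53700 features, and nuclei with at least 200 detected genes were kept (7766 knockout and 10274 WT of 10280 barcodes). No doublet caller was run.

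UMIs were summed over the nuclei of each class and divided by the class total (CPM). Ratios had 0.5 UMI added to each sum, with exact conditional binomial intervals at 95%; shares had Clopper-Pearson intervals. Intervals and the floor of 3 UMIs cover counting error only, and 1 library per genotype allows no test. Thinning drew 500 UMIs per nucleus. The ratios and intervals were tested on simulated data. Alternatives to the rule, the nuclei kept, the scaling and the added UMIs are given in the closing section. Named genes were the rule genes, members of the gene lists, the 20 ranked highest over all other nuclei, 10 each way against blood endothelial nuclei, and up to 10 each way between genotypes. A few genes that met these rules are not reported here. The rule, the lists and these comparisons were chosen with earlier results of these data known; the promoter search was added later. Gene positions came from GENCODE M21 and promoters from RefSeq. Analyses used Python 3.11.15, numpy 2.4.6, scipy 1.17.1, pandas 2.3.3 and matplotlib 3.10.9.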

Additional observations from a re-analysis of the deposited data

How the results depend on the processing

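The lymphatic share remained higher in the knockout under every alternative tried; its log2 ratio of 3.78 became 6.02 without Reln in the rule, where 2 WT nuclei remained. The knockout median of the further lymphatic genes stayed between 4.63 and 5.35. The WT median of 3.88 became 5.22 with at least 5 rule UMIs, 5.54 without Reln and, among alternatives added after seeing the data, 1.88 with UMIs added in proportion and 5.51 in nuclei with at most 2% Ttn.

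The 5 genes higher in the knockout became 22 with at least 2 rule UMIs, 3 with at least 3 rule genes, 3 without competing genes, 2 without Rn18s, Malat1 and mitochondrial genes, and 0 with at least 5 rule UMIs, without Flt4, Mmrn1 or Reln, and after thinning. The 27 lower genes became 16 with at least 50 UMIs a gene, 11 in Y-marked nuclei, 10 without Mmrn1, 7 without Reln, 6 with at least 5 rule UMIs, 5 without Flt4 and 3 after thinning. Among alternatives added after seeing the data, higher and lower genes numbered 0 and 13 in nuclei with an all-endothelial UMI, 0 and 6 at no more than 2% Ttn, and 0 and 12 without the WT nucleus of most UMIs; CPM without muscle-fibre genes and Rn18s gave 0 higher. Mybpc1, at -2.44, turned to 2.29 in nuclei with an all-endothelial UMI, 2.37 without that WT nucleus, 0.90 with at least 5 rule UMIs, 1.40 without Flt4, 1.64 without Mmrn1, 0.26 without Reln and 0.34 after thinning. Fewer WT nuclei and UMIs follow from most of these settings by construction; beyond that, the cause was not tested. No paired analysis was possible because each genotype has 1 library.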
